A study of Mus musculus with 10 samples.

Results

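The loss of RNA between 2 h and 4 h after a block of transcription was followed in 32Dcl3 cells kept in low IL-3, with 4 of the 10 arrays of the series: the 2 arrays of 4 h in low IL-3 were set against the 2 of 2 h in low IL-3, paired by experiment. Of 22690 probe sets in the value table, 11856 had a mean signal of at least 50 over the 10 arrays, and 11811 of these were tested after 45 control probe sets had been left out. The tested probe sets named 6792 genes. No value of the 0 h arrays enters the change from 2 h to 4 h, so it describes how transcripts went on after the first 2 h rather than how far they fell in all.

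32Dcl3 is an IL-3-dependent, non-leukemic mouse myeloblast line. IL-3, a cytokine that signals through JAK2 and STAT5 and through the MEK/ERK pathway, keeps these cells growing and holds back their differentiation. An mRNA level is set by synthesis and decay, and actinomycin D, which binds DNA and stops RNA polymerases, leaves decay alone to change the level. Many mRNAs of short life carry AU-rich elements in the 3′-UTR, where proteins such as the Zfp36 family bring in the enzymes that shorten the poly(A) tail. A transcript that decays at 1 constant rate falls by the same factor in each interval. A slower fall later on is called a plateau below, and a faster fall later on a delayed fall.

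In each of 2 experiments the cells were washed free of IL-3, actinomycin D was added at 10 µg/ml, the culture was divided, and IL-3 was given at 1 ng/ml (high) or 10 pg/ml (low). RNA of total cells was taken at 0 h, and at 2 h and 4 h in each dose, so that every group holds 2 arrays. The labels differ on the 0 h samples, which the titles place after actinomycin D and the descriptions just before it, while the study's methods count time from the addition of the cytokine. The 2 h and 4 h arrays in low IL-3 are not touched by this. All arrays come from untransfected cells of 1 line, with actinomycin D in every 2 h and 4 h culture. The 5 arrays of an experiment come from 1 culture, and experiment was a block in the fit. The p-values therefore leave out the constant difference between the 2 cultures. They rest on the spread that remains after it, pooled over the 5 groups.

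Signal is given as deposited, in dChip intensity units on a linear scale. The 75th percentile of the intensities went from 399 at 2 h to 331 at 4 h in experiment 1 and from 337 to 325 in experiment 2. Of 13 myeloblast markers 9 were at 50 or more on all 4 arrays, among them Mpo and Prtn3, and 3 (Elane, Kit and Cd34) were under 50 on all of them. All 6 lymphoid markers on the array were under 50. At 50 or more on all 4 arrays were 3 of 8 mast cell and basophil markers and 3 of 7 neutrophil markers on the array. So were 4 of 7 macrophage markers (Adgre1, Cd68, Lyz2 and Csf1r, the last at 52.7 to 80.9), while 3 were under 50. Of 7 erythroid and megakaryocyte markers on the array, 3 megakaryocyte markers were at 50 or more and 4 markers were under 50 on all arrays. Gapdh gave 7372 and 8188 at 2 h and 7207 and 8015 at 4 h (experiments 1 and 2, the order kept throughout), and its signal at 4 h was 97.8% ± 0.08 of that at 2 h (mean ± SD, n = 2 experiments).

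Many transcripts went on falling in the second 2 h, and few rose. In low IL-3, 2241 probe sets (19.0% of those tested) fell and 254 (2.15%) rose from 2 h to 4 h. A change passed where its adjusted p was under 0.05 (limma, experiment as a block, Benjamini-Hochberg). The falls name 1651 genes and the rises 213. Transcription was blocked, and the study's methods attribute signals above that of 0 h to measurement noise. A rise, here and below, is therefore a change of signal and is not read as new RNA. What lies behind the rises was not tested. All 2241 falls and 253 of the 254 rises had the same sign in both experiments. The median probe set that fell kept 61.3% of its 2 h signal, and 276 of the 2241 kept at most 50% in both experiments. The median over all tested probe sets was -0.06 on the log2 scale (-0.12 in experiment 1 and -0.01 in experiment 2). Every log2 change from 2 h to 4 h in low IL-3 named below is given relative to this median, with its SE over the fit and with n = 2 arrays per group. Changes over the first 2 h, changes in high IL-3 and the slope changes defined below are relative to their own medians, -0.05, -0.05 and 0.01. The adjusted p-values belong to the changes before this subtraction. As whole cultures were measured, fewer cells of a type and less RNA per cell cannot be told apart. Falls were called in 4.54% of the probe sets of the lowest quartile of 0 h signal and in 26.2% of those of the highest.

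The split between falls and rises depended on the scale of the arrays. With arrays scaled to their 75th percentile the median moved to 0.09 and the counts were 1600 fallen and 1854 risen, with quantile normalization 1713 and 1332, and with a common median, a setting chosen after seeing the data, 1547 and 2045. With Gapdh scaling they were 1951 and 254. Of the 2241 falls, 1600 were also called with the 75th percentile, and 1712 with quantiles. With the 2 h array of experiment 1 left out the counts were 961 and 24, and with its 4 h array left out 1011 and 148. For experiment 2, omission of the 2 h array gave 1511 and 56, and omission of the 4 h array 2061 and 32. A fit that ignores which culture an array came from called 3 falls and 0 rises (at an unadjusted p under 0.05 it gave 1193 falls and 71 rises).

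**Figure D1:**
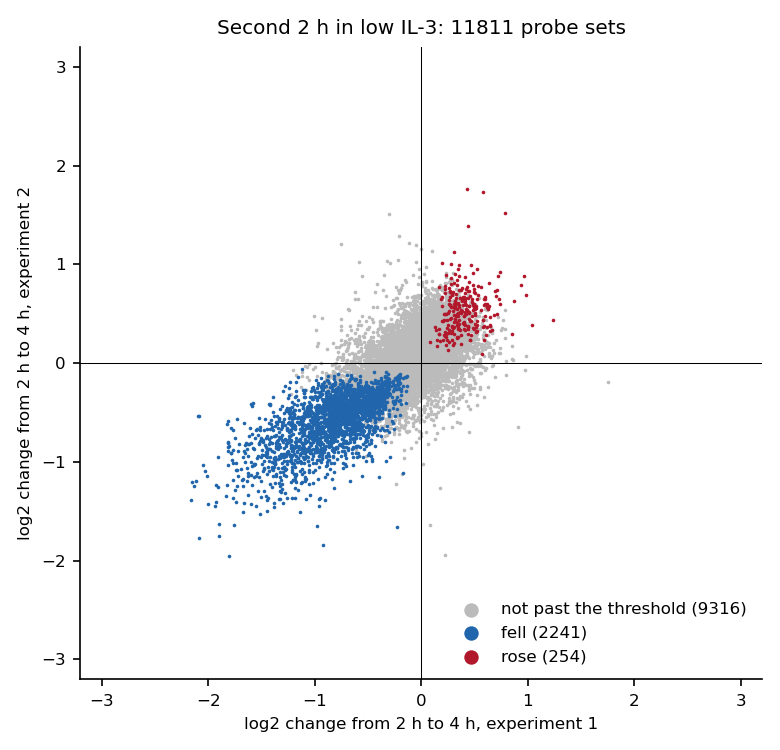
Each point is 1 of the 11811 tested probe sets, by its log2(signal + 16) change from 2 h to 4 h in low IL-3 in experiment 1 (x axis) and in experiment 2 (y axis), with no median subtracted. Blue points are the 2241 that fell and red points the 254 that rose at an adjusted p under 0.05. The fallen probe sets lie below 0 in both experiments and reach further down in experiment 1.

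The plot of the changes in the 2 experiments shows the falls stretched along a line common to both cultures. Of the 200 probe sets with the largest fall in experiment 1, 200 also fell in experiment 2, where 51.4% of all tested probe sets fell, and their median there was -0.94 against -1.41 in experiment 1 (log2, relative to the median of each experiment). In the other direction, 195 of the 200 largest falls of experiment 2 fell in experiment 1, with a median of -1.18, beside 66.8% of all. The 200 largest rises did less well. Of those picked in experiment 1, 169 rose in experiment 2 (all probe sets, 48.6%), with a median of 0.30, and of those picked in experiment 2, 155 rose in experiment 1 (all, 33.2%).

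The 12 largest falls of the second 2 h were in genes of varied function. Cebpa, a transcription factor of granulocytic commitment, gave 76.5 and 191 at 2 h and 10.5 and 37.3 at 4 h, a change of -1.82 ± 0.21 (adjusted p = 2.6e-05). Its 4 h values lie under 50, where the array separates levels poorly and the added 16 units make a fall look smaller. Sqle, squalene epoxidase of the cholesterol pathway, gave 1151 and 637 at 2 h and 296 and 178 at 4 h, a change of -1.77 ± 0.13 (adjusted p = 1.3e-06). Samsn1, an adaptor protein of blood cells, gave 1290.1 and 741 at 2 h and 334 and 229 at 4 h, a change of -1.71 ± 0.15 (adjusted p = 4.3e-06). In all 3 genes both 4 h arrays lay below both 2 h arrays, and the signal left at 4 h was 16.7% ± 4.12, 26.9% ± 1.64 and 28.4% ± 3.53 of that at 2 h.

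Slbp, which binds the stem-loop of histone mRNAs, gave 1352 and 597 at 2 h and 388 and 180.4 at 4 h and changed by -1.64 ± 0.14 (adjusted p = 3.5e-06). Plk1, a kinase of mitotic entry, gave 402 and 325 at 2 h and 78.0 and 132 at 4 h and changed by -1.62 ± 0.20 (adjusted p = 3.4e-05). Both had lost most of their 2 h signal in each culture, Plk1 more so in experiment 1. The other members of the 12 largest falls were Lsm8 and Cdc5l (splicing), Dbr1 (the lariat debranching enzyme), Sap30 (a histone deacetylase complex subunit), Mrps31 (mitochondrial ribosome), Slc20a2 (a phosphate transporter) and Lrrc41, with changes from -1.63 for Lsm8 to -1.52 for Dbr1. A second probe set of Slc20a2 was at -0.17 and did not pass. Each of the 12 had also fallen in the first 2 h, by 0.61 for Lrrc41 and more for the others, and none had a slope change that passed.

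An apparent half-life was taken for each experiment from the 2 h and 4 h signals, as 2 h over the number of halvings between them. It assumes the scale of both arrays to be the same. Over the 2241 fallen probe sets the mean of both experiments had a median of 3.0 h, with 2.16 h and 4.18 h as the quartiles. The medians of the experiments were 2.36 h in experiment 1 and 3.46 h in experiment 2. Sqle had apparent half-lives of 1.02 and 1.09 h and Slbp of 1.11 and 1.16 h. That of Cebpa rests on 4 h signals under 50 and is not read here. At the other end, Mcm7, a subunit of the replicative helicase, had 4.03 and 4.82 h, and Hnrnpab, an RNA-binding protein, 4.63 and 5.40 h on the named probe set, while 6 further Hnrnpab probe sets did not pass.

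**Figure D2:**
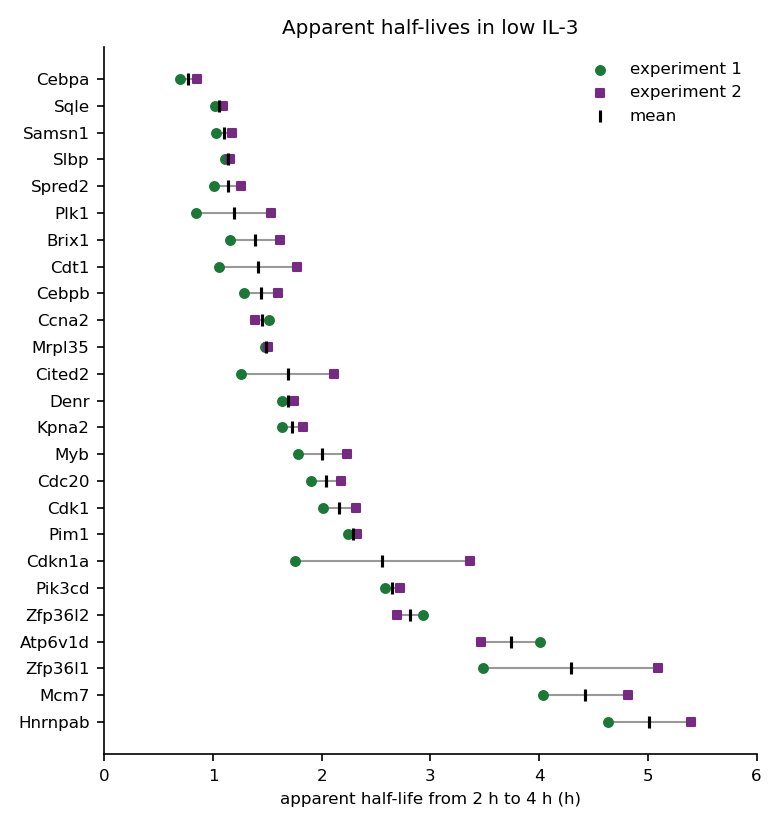
Apparent half-life (h) from 2 h to 4 h in low IL-3 for 25 named transcripts that fell, with experiment 1 as circles, experiment 2 as squares, the mean of both as a bar and a line between them. The transcripts are ordered by the mean, from Cebpa, whose 4 h signals were under 50, and Sqle, near 1 h, to Hnrnpab, near 5 h.

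As the plot of half-lives shows, the experiments lay close for Sqle, Slbp, Mrpl35, Denr, Pim1 and Pik3cd and far apart for Plk1, Cited2 and Cdkn1a. For Cdkn1a, the p21 inhibitor of cyclin-dependent kinases, they were 1.75 and 3.36 h, and for Cited2, a transcriptional coregulator, 1.26 and 2.11 h.

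Mitotic transcripts formed the gene list with the largest share of falls among the lists of 10 or more tested genes when all arrays were used. With 1 probe set per gene, 22.4% of the 6792 genes fell and 2.12% rose, and the median change was -0.04. Of the G2/M and mitosis genes 33 of 49 fell and none rose, with a median of -0.50. Ccna2, the cyclin of S phase and G2, gave 1828 and 1351 at 2 h and 733 and 496 at 4 h and changed by -1.30 ± 0.11 (adjusted p = 1.9e-06). Cdc20, an activator of the anaphase-promoting complex, gave 3236 and 2687 at 2 h and 1560.4 and 1423 at 4 h and changed by -0.92 ± 0.08 (adjusted p = 2e-06). Cdk1, the kinase of mitotic entry, gave 2896 and 2286 at 2 h and 1454 and 1255 at 4 h and changed by -0.86 ± 0.08 (adjusted p = 3.4e-06).

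Within these 3 genes every 4 h array lay below every 2 h array, and the signals were far above background. Spc25, of the kinetochore, changed by -1.20, with 1220.4 and 678 at 2 h and 463 and 297 at 4 h, and its dim second probe set was at 0.36 and did not pass. Not all proliferation genes went down. Mki67, the Ki-67 antigen, gave 2059 and 1281 at 2 h and 2106 and 1318 at 4 h, a change of 0.10 (95% interval -0.09 to 0.28, adjusted p = 0.81), and Cenpa, the centromeric histone, changed by 0.09 (95% interval -0.07 to 0.26, adjusted p = 0.79).

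Among genes of G1/S and DNA replication 21 of 47 fell and none rose, with a median of -0.22. Cdt1, which loads the helicase at origins, gave 817 and 269.9 at 2 h and 220.0 and 123 at 4 h and changed by -1.37 ± 0.18 (adjusted p = 5.8e-05). Rfc3, a clamp loader subunit, gave 161 and 92.1 at 2 h and 49.0 and 41.8 at 4 h and changed by -1.12 ± 0.18 (adjusted p = 0.00029). Mcm7 moved less (3236 and 2565 at 2 h and 2295 and 1923 at 4 h), by -0.39 ± 0.07 (adjusted p = 0.00024), and its 3 other probe sets fell too. The D-type cyclin Ccnd2 lay at 380.2 and 497 at 2 h and 467 and 662 at 4 h, a change of 0.40 (95% interval 0.13 to 0.68, adjusted p = 0.072) on the probe set of smallest p. Its 6 other probe sets, 4 of them brighter, were at 0.10 to 0.22 and did not pass. Its partner Cdk4 lay at 2318 and 2464 at 2 h and 2495 and 3013 at 4 h, 0.26 (95% interval 0.09 to 0.42, adjusted p = 0.079). Among histone genes, 9 of which were tested, H2ax fell (2387 and 2759 at 2 h and 1739 and 1963 at 4 h, -0.41 ± 0.08, adjusted p = 0.00088) and H2aj rose (0.32, adjusted p = 0.034).

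Many mRNAs of ribosome biogenesis fell, and none of those of the cytoplasmic ribosomal proteins passed as fallen. Of the ribosome biogenesis genes 42 of 70 fell and none rose, with a median of -0.41. Utp4, of the small subunit processome, gave 1144 and 967 at 2 h and 535 and 520.2 at 4 h and changed by -0.91 ± 0.11 (adjusted p = 2.7e-05). Brix1, which acts in large subunit assembly, gave 1098 and 506 at 2 h and 333 and 215 at 4 h and changed by -1.37 ± 0.17 (adjusted p = 3e-05). Utp18 and Surf6 changed by -1.16 and -1.24. Of the cytoplasmic ribosomal proteins 0 of 44 fell and 1 rose, with a median of 0.05. Rps14 gave 9139 and 8825 at 2 h and 8458 and 8356 at 4 h and Rps29 10215 and 10768 at 2 h and 9817 and 10205 at 4 h, with changes of -0.04 (95% interval -0.12 to 0.05, adjusted p = 0.097) for Rps14 and -0.01 (95% interval -0.09 to 0.07, adjusted p = 0.23) for Rps29. With the 75th percentile 28 of the 70 biogenesis genes fell and 1 rose, and 0 of the 44 ribosomal protein genes fell and 4 rose, beside 16.3% of all genes fallen and 15.2% risen. The median of the ribosomal proteins turned to -0.02 with quantiles.

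Of the mitochondrial ribosomal protein genes 35 of 73 fell and none rose, with a median of -0.24, and with the 75th percentile 26 fell and 10 rose, the latter 13.7% beside 15.2% of all genes. Mrpl44 gave 274 and 162 at 2 h and 69.0 and 62.3 at 4 h and changed by -1.42 ± 0.17 (adjusted p = 3e-05). Mrpl43 changed by -1.15 and Mrpl17 by -0.97, against 0.37 (95% interval 0.13 to 0.61, adjusted p = 0.067) for Mrps21. The counts take the brightest probe set of each gene, and on a dimmer one Mrps15 passed upwards, with 1423 and 1180.1 at 2 h and 1699.8 and 1542 at 4 h and 0.38 ± 0.10 (adjusted p = 0.027). In mitochondrial import and heat shock 13 of 27 fell, among them Timm10 (378 and 153 at 2 h and 111 and 58.2 at 4 h, -1.35 ± 0.16, adjusted p = 2.3e-05) and Timm23 (3203 and 2843 at 2 h and 1629.5 and 1801 at 4 h, -0.75 ± 0.09, adjusted p = 1.6e-05), both parts of the inner membrane import system.

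Further lists with a larger share of falls than the 22.4% of all genes were nuclear pore and transport (20 of 50), splicing factors (35 of 97), translation factors (19 of 55), tRNA synthetases and tRNA modification (18 of 53), the proteasome (15 of 48), and Mediator, TFIID and polymerase II (23 of 75). With the 75th percentile the proteasome had 9 falls and 9 rises (18.75% each), and Mediator, TFIID and polymerase II 15 and 7 (20% fallen). Nuclear pore and transport had 14 and 7, splicing factors 21 and 3, translation factors 16 and 7, and the tRNA list 13 and 5. Of all genes 16.3% fell and 15.2% rose at that scaling. Kpna2, an importin of nuclear localization signals, had the smallest p of the nuclear transport genes, with 3259.7 and 2889 at 2 h and 1396 and 1352 at 4 h and a change of -1.09 ± 0.07 (adjusted p = 3.2e-07). Nup98 and Nup50, of the nuclear pore, changed by -1.46 and -1.42. Sf3b4, a subunit of the U2 snRNP, gave 1244 and 1037 at 2 h and 538 and 457 at 4 h, and Puf60 844 and 860.0 at 2 h and 332 and 419 at 4 h, changes of -1.11 and -1.10. Cdk9, the kinase that releases paused polymerase II, gave 1079 and 644 at 2 h and 387 and 302 at 4 h and changed by -1.19 ± 0.14 (adjusted p = 2.8e-05). Gtf2b, a general initiation factor, changed by -1.48 ± 0.21 (adjusted p = 9.9e-05).

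Eif3a, the largest subunit of the initiation factor eIF3, gave 1909 and 1376 at 2 h and 859 and 636 at 4 h and changed by -1.06 ± 0.10 (adjusted p = 7.4e-06), although 2 of its 3 other probe sets did not pass. Eif1a changed by -1.18, and Eef1e1, which belongs to the multi-synthetase complex, by -1.18. The list as a whole had a median of -0.03, and 36 of the 55 did not pass in either direction. Psmd7 and Psmd6, of the proteasome's regulatory particle, changed by -0.85 and -0.53, with 1043 and 1072 at 2 h and 540.0 and 572 at 4 h for Psmd7, while Psmf1, a proteasome inhibitor, rose (537 and 518 at 2 h and 758 and 668 at 4 h, 0.48 ± 0.12, adjusted p = 0.02) while its 2 other probe sets did not pass. Of ubiquitin ligases and E2 enzymes 33 of 137 fell and 2 rose, near the share of all genes, with Ube2g1 (1053 and 695 at 2 h and 407 and 291 at 4 h, -1.22 ± 0.12, adjusted p = 9.8e-06) having the smallest p. Of ubiquitin-specific proteases 6 of 30 fell, Usp10 by -1.27 and Usp47 by -0.88.

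**Figure D3:**
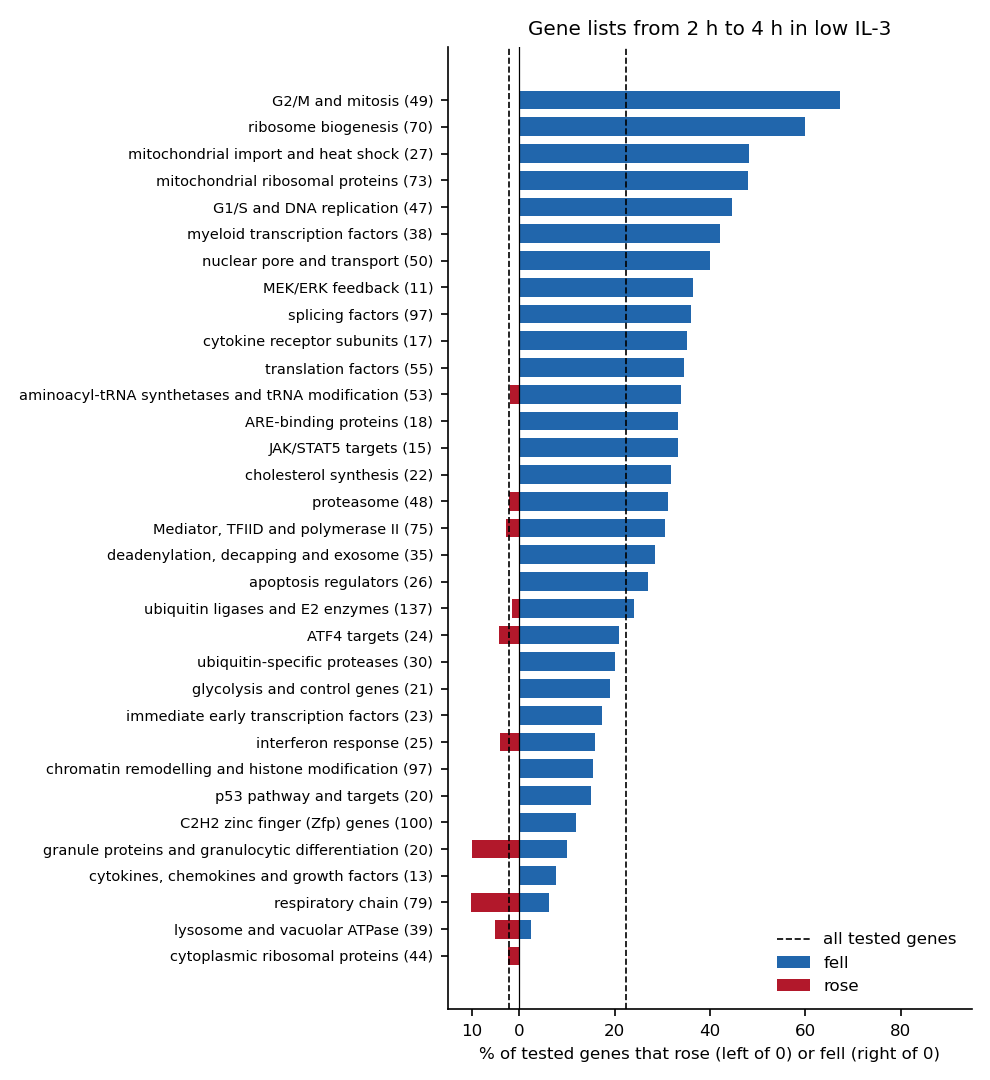
Share of the tested genes of each list that rose (red, left of 0) or fell (blue, right of 0) from 2 h to 4 h in low IL-3 past the threshold of 0.05, with 1 probe set per gene and the number of tested genes in brackets, for lists with 10 or more tested genes. Dashed lines mark all 6792 genes, of which 22.4% fell and 2.12% rose. Mitosis and ribosome biogenesis head the plot, and cytoplasmic ribosomal proteins, lysosome and respiratory chain lie at its foot.

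The order of lists in the plot of shares was read beside single arrays. Without the 2 h array of experiment 1 the G2/M list had 16 falls, the G1/S list 5 and all genes 660 of 6792, a share of 9.72%. The G2/M list no longer led there, with 32.7% fallen. Mitochondrial import and heat shock had 33.3% and ribosome biogenesis 32.9%. Without the 4 h array of experiment 1 ribosome biogenesis had 21 and the mitochondrial ribosome 20, beside 705 of all genes (10.4%). Over all 10 arrays left out in turn, all genes ranged from 660 to 1611 falls and from 9 to 212 rises. Most of the named probe sets that fell were called with each array left out, and of those that rose only Csrp1 and Mcpt8 were. The named genes were largely picked by size of change or by p in the same data. Their calls therefore cannot show how stable the falls and rises are as a whole. The counts over all genes are not subject to that choice.

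Several transcripts of IL-3 signalling and of myeloid regulators fell in the second 2 h. Of the 8 transcripts that the study followed on Northern blots 7 fell, which is no independent evidence of their direction, since the study chose them on these arrays, Cdkn1a excepted. Cited2 gave 476 and 290.4 at 2 h and 159 and 151 at 4 h and changed by -1.13 ± 0.18 (adjusted p = 0.00026). Myb, a transcription factor of immature blood cells, gave 1705 and 1097 at 2 h and 784 and 589 at 4 h and changed by -0.93 ± 0.11 (adjusted p = 2.3e-05), with its 2 other probe sets falling too. Pim1, a STAT5-induced survival kinase, gave 835 and 576 at 2 h and 450.0 and 318 at 4 h and changed by -0.79 ± 0.16 (adjusted p = 0.0012).

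Cdkn1a gave 1522 and 811 at 2 h and 689 and 537 at 4 h and changed by -0.79 ± 0.14 (adjusted p = 0.00033), with a second probe set at -0.31 that did not pass. Pik3cd, the PI3-kinase p110δ subunit, changed by -0.66 ± 0.14 (adjusted p = 0.0015), with 1 of its 2 other probe sets not passing (-0.22). Zfp36l2, an ARE-binding protein that promotes decay, changed by -0.62 ± 0.18 (adjusted p = 0.012). Zfp36l1, of the same family, changed by -0.40 ± 0.15 (adjusted p = 0.041), a call that was lost, among other settings, with the 75th percentile, with quantiles and without any 1 of the 4 low IL-3 arrays. The exception was the cytokine Il6, whose signal had dropped before 2 h: it gave 787 and 994 at 0 h, 127 and 169 at 2 h, and 122 and 194 at 4 h, a change from 2 h to 4 h of 0.13 (95% interval -0.17 to 0.43, adjusted p = 0.77). Hbegf, an EGF-family growth factor, gave 309 and 269 at 2 h and 210.2 and 242 at 4 h and -0.27 (95% interval -0.60 to 0.05, adjusted p = 0.14).

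Of 15 JAK/STAT5 targets 5 fell (33.3%, beside 22.4% of all genes) and none rose. Socs2, a feedback inhibitor of cytokine receptors, gave 351 and 221 at 2 h and 161 and 94.3 at 4 h and changed by -1.02 ± 0.19 (adjusted p = 0.00066). Pim2 changed by -0.56, and Bcl2l1, the survival protein Bcl-xL, by -0.57, with 2 other probe sets that did not pass. Of 11 MEK/ERK feedback genes 4 fell (36.4%). Spred2, an inhibitor of Ras-ERK signalling, gave 275 and 183 at 2 h and 69.6 and 61.0 at 4 h and changed by -1.51 ± 0.16 (adjusted p = 1.4e-05). Spred1 changed by -0.92, with 1 of its 2 other probe sets, of low signal, at 0.15, and the transcription factor Ets2 gave 182 and 85.1 at 2 h and 49.3 and 21.7 at 4 h and changed by -1.45 ± 0.16 (adjusted p = 2e-05). Of 17 cytokine receptor subunits 6 fell, with 308 and 204 at 2 h and 115 and 116 at 4 h for Tgfbr2 (-0.96) and 737 and 822 at 2 h and 409 and 611 at 4 h for Csf2rb2, the IL-3-specific beta chain (-0.56). The IL-3 receptor alpha chain Il3ra stood at 424 and 392 at 2 h and 496 and 528 at 4 h, 0.38 (95% interval 0.07 to 0.69, adjusted p = 0.14). With the 75th percentile 5 of the 17 receptor genes fell and 4 rose, beside 16.3% and 15.2% of all genes. The JAK/STAT5 list then had 4 falls and 1 rise, and the MEK/ERK feedback list 3 and 0. Without the 2 h array of experiment 1 each of these lists had 2 falls, beside 9.72% of all genes.

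Among myeloid transcription factors 16 of 38 fell (42.1%, beside 22.4% of all genes) and none rose, with a median of -0.21. Beside Cebpa and Myb, Fli1 gave 869 and 518 at 2 h and 277 and 242 at 4 h and changed by -1.26 ± 0.14 (adjusted p = 2.1e-05). Lyl1 gave 1091 and 1003 at 2 h and 404 and 534 at 4 h and changed by -1.08 ± 0.12 (adjusted p = 2.1e-05). Gata2, a regulator of progenitors and mast cells, gave 218 and 245 at 2 h and 74.0 and 117 at 4 h and changed by -1.12 ± 0.16 (adjusted p = 0.00012).

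In the decay machinery, 6 of 18 ARE-binding protein genes and 10 of 35 genes of deadenylation, decapping and the exosome fell, the latter 28.6%, beside 22.4% of all genes. With the 75th percentile 3 of the 18 fell and 3 rose, and 9 of the 35 fell and 4 rose. Of all genes 16.3% fell and 15.2% rose at that scaling. Without the 2 h array of experiment 2, 2 of the 18 and 8 of the 35 fell, beside 15.5% of all genes. Pcbp1, a poly(C)-binding protein, gave 2991 and 3052 at 2 h and 1734 and 1882 at 4 h and changed by -0.68 ± 0.08 (adjusted p = 1.4e-05). Pum2, a Pumilio repressor, gave 1166 and 542 at 2 h and 479 and 282 at 4 h and changed by -1.02 ± 0.13 (adjusted p = 5.2e-05), though 1 of its 2 other probe sets was at -0.21 and did not pass. Exosc9, an exosome subunit, gave 328 and 278 at 2 h and 164 and 134 at 4 h and changed by -0.89 ± 0.15 (adjusted p = 0.00023). Cnot2, of the CCR4-NOT deadenylase, changed by -0.90, with 2 of its 3 other probe sets not passing (-0.39 and -0.47). Ddx6, a helicase of decapping, was at 1481 and 1544 at 2 h and 2042 and 1763 at 4 h, 0.38 (95% interval 0.14 to 0.63, adjusted p = 0.06).

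The p53, apoptosis and ATF4 lists lay near or below the 22.4% of all genes, with 15.0%, 26.9% and 20.8% fallen. Of 20 p53 pathway genes 3 fell. The probe sets with the smallest p gave -1.01 for Apaf1 (the apoptosome scaffold) and -0.995 for Sesn2, a stress-induced sestrin whose second probe set was at -0.08 and did not pass. Of 26 apoptosis regulators 7 fell, with Fadd at 121 and 153 at 2 h and 38.8 and 59.7 at 4 h (-1.18 ± 0.16, adjusted p = 7.5e-05). Bid lay at 501 and 667 at 2 h and 221 and 280.0 at 4 h (-1.11 ± 0.16, adjusted p = 8.1e-05), and both act on the death receptor route. Of 22 cholesterol synthesis genes 7 fell, Hmgcs1 next after Sqle (1204 and 752 at 2 h and 464 and 352 at 4 h, -1.15 ± 0.12, adjusted p = 8.4e-06, its 3 other probe sets falling too), and the median of the list was -0.08. Of 24 ATF4 targets 5 fell and 1, Atf5, rose, with Atf4 itself at 1918 and 1741 at 2 h and 1164 and 849 at 4 h (-0.81 ± 0.12, adjusted p = 0.00013). Trib3 lay at 335 and 311 at 2 h and 103 and 145 at 4 h (-1.24 ± 0.19, adjusted p = 0.00014).

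Shares below the 22.4% of all genes were found in 15 of 97 chromatin genes (15.5%) and 12 of 100 C2H2 zinc finger genes (12%). The interferon response list had 4 of 25 (16%) and cytokines and growth factors 1 of 13 (7.69%), where Ltb (lymphotoxin beta) fell by 0.67. Glycolysis and control genes, with 4 of 21 (19.0%), lay near the share of all genes. Of 8 Krueppel-like factors 2 fell (25%). In 23 immediate early transcription factors the median was -0.02 and 4 fell (17.4%). Cebpb gave 371 and 221 at 2 h and 126 and 92.7 at 4 h and changed by -1.22 ± 0.17 (adjusted p = 7.2e-05). Jund gave 2448 and 2372 at 2 h and 1233 and 746 at 4 h and changed by -1.25 ± 0.19 (adjusted p = 0.00015). Bhlhe40 and Id2 changed by -0.84 and -0.82, and the dim second probe sets of Cebpb and Id2 did not pass. The zinc finger and immediate early lists had larger losses in the interval before, which shares the 2 h arrays: their medians from 0 h to 2 h were -0.79 and -2.21, against -0.04 for all genes.

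The respiratory chain, lysosome and granule lists had medians above that of all genes, with few members that passed. Of 79 respiratory chain genes 8 rose and 5 fell, with a median of 0.14. Ndufb7, of complex I, gave 1452 and 1672 at 2 h and 1999 and 2249 at 4 h and changed by 0.50 ± 0.09 (adjusted p = 0.0024). Atp5o, of the ATP synthase, gave 2079.8 and 2113 at 2 h and 2779 and 2659 at 4 h and changed by 0.43 ± 0.08 (adjusted p = 0.0046). Uqcr10, of complex III, gave 192 and 297 at 2 h and 320.1 and 502 at 4 h and changed by 0.77 ± 0.15 (adjusted p = 0.0034), with 2 other probe sets that did not pass. The assembly factor Ndufaf1 went the other way (268 and 121 at 2 h and 98.1 and 70.3 at 4 h, -0.93 ± 0.17, adjusted p = 0.00062).

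Of 39 lysosome genes 2 rose and 1 fell, with a median of 0.14. Ctsa, cathepsin A, gave 589 and 589 at 2 h and 792 and 896 at 4 h and changed by 0.56 ± 0.12 (adjusted p = 0.0071). Lamp2, of the lysosomal membrane, gave 237 and 379 at 2 h and 394 and 616 at 4 h and changed by 0.75 ± 0.18 (adjusted p = 0.011) on 1 of its 4 tested probe sets. Of 20 granule genes 2 rose and 2 fell, with a median of 0.21. Lcn2, neutrophil lipocalin, gave 1604 and 1563 at 2 h and 1983 and 1919 at 4 h and changed by 0.36 ± 0.09 (adjusted p = 0.02). Serpinb1a, an inhibitor of neutrophil proteases, gave 2328 and 2929.6 at 2 h and 1809 and 2424 at 4 h and changed by -0.26 ± 0.07 (adjusted p = 0.0054). With the 75th percentile 39 of the 79 respiratory chain genes, 17 of the 39 lysosome genes and 8 of the 20 granule genes rose, beside 1035 of all 6792, of which 1105 fell. Without the 2 h array of experiment 1 none of the respiratory chain, lysosome or granule genes rose, and all genes had 9 rises.

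Mcpt8, a protease of basophils and mast cells, gave 80.3 and 269 at 2 h and 172 and 507 at 4 h, a change of 0.98 ± 0.18 (adjusted p = 0.0013), and its 4 h signal lay above the 2 h signal of the same culture in both experiments, though the groups overlapped. In the mast cell and basophil list 2 of 7 tested genes rose (Mcpt8 and Fcer1g) and Gata2 fell. The summed signal of the 8 markers of that cell type went from 1998 to 1589 in experiment 1 and from 2523 to 3048 in experiment 2, with Ms4a2 and Cma1 under 50 on all 4 arrays. The sums of macrophage markers were 3769 and 3741 at 2 h and 3807 and 4092 at 4 h, and those of the 7 neutrophil markers on the array 4140 and 1690 at 2 h and 4170 and 2025 at 4 h. No gene of the macrophage, lymphoid or erythroid and megakaryocyte lists passed, with 4, 1 and 4 tested. The part of these markers in the rises was not tested.

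The 2 largest rises on the log2 scale were in transcripts of low signal. Atxn7, a deubiquitinase module subunit, gave 49.6 and 12.6 at 2 h and 82.3 and 78.8 at 4 h (1.22 ± 0.27, adjusted p = 0.0054). Hexdc, a hexosaminidase, gave 33.6 and 37.3 at 2 h and 69.7 and 137 at 4 h (1.22 ± 0.24, adjusted p = 0.0023). Both were under 100 on every 2 h array. Lin7c, Slc39a1, Nkain1, Nenf, Adam15, Guca1a, Gm11517, Dgcr6 and Phldb1 rose by 0.77 to 0.92, and of their other tested probe sets only that of Dgcr6 rose as well. Over the whole table, 217 of the 254 risen probe sets had at least 100 on all 4 arrays. Of 123 risen genes with a further tested probe set, 24 had another that rose, while among the fallen genes it was 351 of 765. Probe sets of 1 gene can detect different transcript ends, so their calls may differ.

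A delayed fall was defined as a fall from 2 h to 4 h that passed, together with a slope change (the change from 2 h to 4 h minus that from 0 h to 2 h) that was below 0 and passed. The 2 h arrays enter both intervals with opposite sign, so an error in them moves the 2 changes apart. The slope change was negative for 31 probe sets (0.262% of 11811, and 0.324% of genes) and positive for 349 (2.95%, and 3.62% of genes). Delayed falls were 30 of the 31 and named 24 genes, and all 30 had a negative slope change in both experiments. In 20 of the 30 the first 2 h had not passed, and in 8 the 2 h signal was at or above that at 0 h in both cultures.

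Denr, a factor of translation reinitiation, fell without an earlier loss. It gave 914 and 1042 at 0 h, 1036 and 1174 at 2 h, and 444 and 529.7 at 4 h, a slope change of -1.35 ± 0.20 (adjusted p = 0.0012) and a late change of -1.10 ± 0.12 (adjusted p = 1.1e-05), although a second probe set was at 0.09 from 2 h to 4 h. Acbd6, an acyl-CoA-binding protein, gave 347 and 321 at 0 h, 383 and 295 at 2 h, and 149 and 109 at 4 h, a slope change of -1.32 ± 0.25 (adjusted p = 0.007). A brighter Acbd6 probe set had a slope change of -0.28, which did not pass, and a late change of -0.34. Mrpl35, of the mitochondrial ribosome, gave 1218 and 1215 at 0 h, 1062 and 956 at 2 h, and 415 and 380.2 at 4 h, a slope change of -1.06 ± 0.23 (adjusted p = 0.016). On the named probe sets of all 3, 113% ± 0.47, 101% ± 13.0 and 82.98% ± 6.03 of the 0 h signal was present at 2 h (for Acbd6 above it in experiment 1 and below it in experiment 2), and at 4 h both experiments had fallen to 44.0% ± 1.61, 37.9% ± 1.39 and 39.4% ± 0.48 of the 2 h signal.

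Slc6a13 (a GABA transporter) and Tbrg1 had slope changes of -1.18 ± 0.26 (adjusted p = 0.018) and -0.96 ± 0.22 (adjusted p = 0.024). Eif6, which keeps ribosomal subunits apart, gave 783 and 1569 at 0 h, 1097 and 1709 at 2 h, and 707 and 1004 at 4 h, a slope change of -1.004 ± 0.26 (adjusted p = 0.046) that was lost under 7 of the 10 other settings that kept the block and all arrays. Tuba8 (-1.14 ± 0.29, adjusted p = 0.045) and Fzd2 (-1.95 ± 0.50, adjusted p = 0.045) were as near to the threshold, and Fzd2 was under 50 on all arrays of experiment 1 in low IL-3 and at 0 h.

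The delayed falls outside the rule for named genes were chosen after their values were seen. Cks2, a cyclin-dependent kinase subunit, gave 4029.6 and 3783 at 0 h, 2941 and 2320.1 at 2 h, and 1064 and 879 at 4 h, a slope change of -0.86 ± 0.15 (adjusted p = 0.0039), and its second probe set qualified as well. Ccna2 had a slope change of -0.86 ± 0.19 (adjusted p = 0.017) and Cdc20 of -0.53 ± 0.13 (adjusted p = 0.048), while the 1 other probe set of Ccna2 and the 2 others of Cdc20 did not pass. Ppp2ca, the catalytic subunit of protein phosphatase 2A, gave 3193 and 2820.0 at 0 h, 2482 and 2015 at 2 h, and 1075 and 986 at 4 h. Cct4 and Cct6a, of the chaperonin TRiC, had slope changes of -0.48 ± 0.11 (adjusted p = 0.024) and -0.46 ± 0.12 (adjusted p = 0.047), each on 1 probe set, while their other tested probe sets did not pass. The rest were Dr1, Grhpr, Arf6, Wdr12, Mrps26, Timm23, Aimp1, Arcn1, Tmem33 and Csnk1a1. By list, 2 of 49 G2/M genes, 2 of 73 mitochondrial ribosomal protein genes, 1 of 70 ribosome biogenesis genes, 1 of 55 translation factors, 1 of 27 mitochondrial import and heat shock genes and 1 of 53 tRNA synthetase and modification genes had a negative slope change that passed, beside 0.324% of all genes.

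The number of delayed falls is small and moves with single arrays. It was 14 without the 0 h array of experiment 1, 5 and 2 without the 2 h arrays of experiments 1 and 2, and 14 and 10 without the 4 h arrays. With the 75th percentile it was 44, of which 19 were among the 30.

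**Figure D4:**
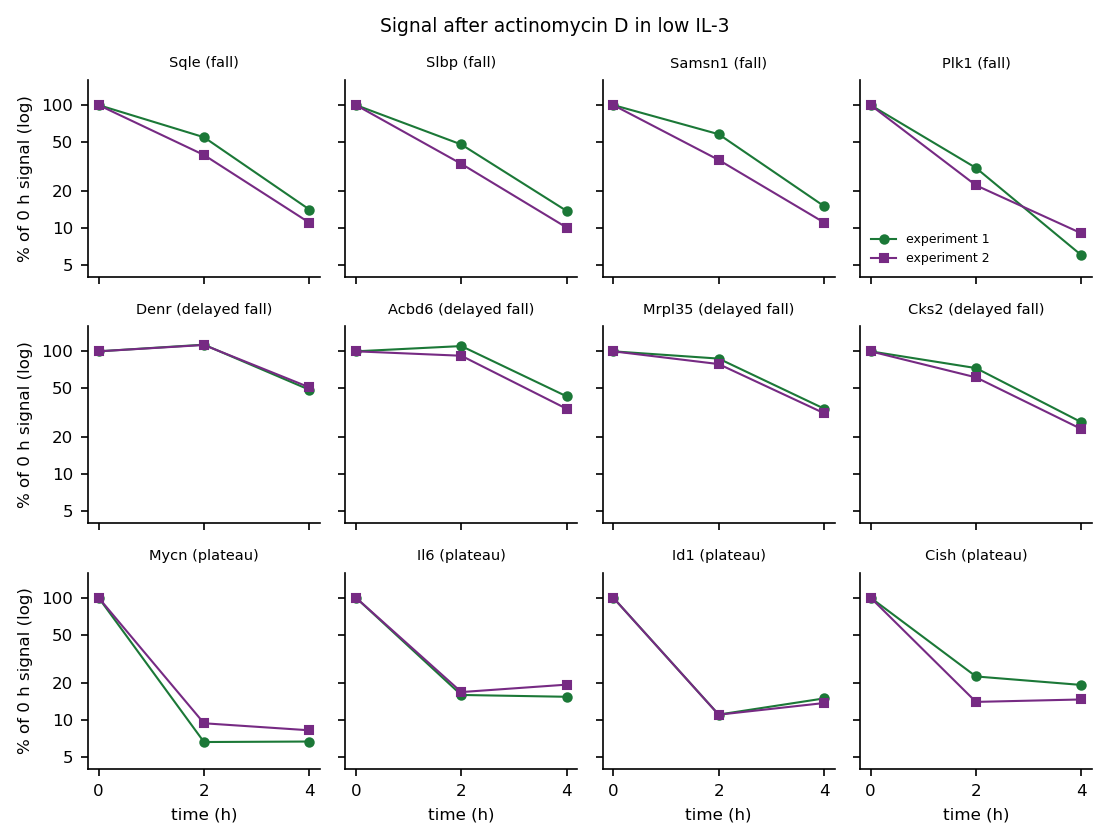
Signal as a percentage of the 0 h signal of the same experiment (log axis) against time in low IL-3 for 12 transcripts, with experiment 1 as green circles and experiment 2 as violet squares. The upper row shows large falls, the middle row delayed falls, with a smaller loss or none until 2 h, and the lower row plateaus, which had dropped under 25% by 2 h and changed little after it.

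Plateaus made the larger class. A plateau was a fall of at least 1 on the log2 scale from 0 h to 2 h that passed, with a slope change above 0 that passed. There were 342, naming 272 genes, and at the median 21.3% of the 0 h signal was left at 2 h and 17.4% at 4 h. Their median signal was 447 at 0 h and 88.9 at 2 h. Low signals leave little room for a further fall on this scale, and 51 of the 342 were under 50 at 2 h in both experiments, and 101 were at 100 or more in both. Of the 342, 76 still fell from 2 h to 4 h and 1 rose, counts on which the definition itself bears.

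The largest slope changes were at probe sets of low signal at 2 h. Myc gave 1463 and 1064 at 0 h, 54.7 and 40.9 at 2 h, and 64.5 and 38.3 at 4 h, a slope change of 4.36 ± 0.33 (adjusted p = 3.7e-06). Nfkbia, the NF-κB inhibitor IκBα, gave 549 and 694 at 0 h, 28.3 and 23.6 at 2 h, and 24.6 and 30.6 at 4 h on this probe set, and the phosphatase Dusp2 gave 738 and 477 at 0 h, 29.4 and 22.4 at 2 h, and 20.4 and 31.0 at 4 h. Nfil3 and 2 probe sets each of Socs3 and Gas5 (a growth arrest-specific noncoding RNA) were under 100 on both 2 h arrays. A further Socs3 probe set did not pass, and 2 bright Gas5 probe sets kept 96.5% and 96.6% of the 0 h signal at 2 h, with slope changes that did not pass. For Myc, Nfkbia and Dusp2 the late change was 0.12 (95% interval -0.28 to 0.52, adjusted p = 0.87), 0.11 (95% interval -0.30 to 0.53, adjusted p = 0.88) and 0.05 (95% interval -0.43 to 0.52, adjusted p = 0.97).

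Other plateaus had higher signals at 2 h, of 94.4 or more. Mycn, a Myc paralog, gave 2208 and 1609.7 at 0 h, 147 and 152 at 2 h, and 148 and 133 at 4 h, a slope change of 3.43 ± 0.31 (adjusted p = 1.9e-05) and a late change of -0.02 (95% interval -0.40 to 0.36, adjusted p = 0.8). Id1, an inhibitor of basic helix-loop-helix factors, gave 849 and 1439 at 0 h, 94.4 and 159.8 at 2 h, and 128 and 199 at 4 h, a slope change of 3.33 ± 0.25 (adjusted p = 3.7e-06) and a late change of 0.40 (95% interval 0.09 to 0.70, adjusted p = 0.11). Il6, whose values are given above, had a slope change of 2.53 ± 0.24 (adjusted p = 3.9e-05).

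Further such plateaus were chosen after their values were seen. Cish, a STAT5-induced feedback inhibitor, gave 3177 and 2856 at 0 h, 723 and 403 at 2 h, and 616 and 422 at 4 h and a slope change of 2.35 ± 0.25 (adjusted p = 8.8e-05). Nrros, a leucine-rich repeat protein of myeloid cells, gave 2305 and 2719 at 0 h, 231 and 327 at 2 h, and 187 and 311 at 4 h, and the immediate early gene Ier2 gave 877 and 1985 at 0 h, 179 and 222 at 2 h, and 258 and 232 at 4 h. Mcl1, a short-lived survival protein of the Bcl-2 family, had 6 probe sets among the 342. In contrast, Cited2 (4803 and 4449 at 0 h, 476 and 290.4 at 2 h, and 159 and 151 at 4 h) slowed down and yet lost 57.4% of its 2 h signal by 4 h at the mean of both experiments, with a slope change of 2.38 ± 0.32 (adjusted p = 0.00058). Zfp36l2 did likewise, from 3455 and 2939.6 at 0 h, 459 and 435 at 2 h, and 286 and 260.2 at 4 h, with a slope change of 2.10 ± 0.31 (adjusted p = 0.001).

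By list, a positive slope change passed in 16 of 23 immediate early transcription factors, 27 of 100 C2H2 zinc finger genes, 6 of 15 JAK/STAT5 targets, 4 of 11 MEK/ERK feedback genes, 7 of 38 myeloid transcription factors and 7 of 49 G2/M genes, beside 3.62% of all genes. It passed in none of the 70 ribosome biogenesis, 44 cytoplasmic ribosomal protein, 73 mitochondrial ribosomal protein, 79 respiratory chain and 48 proteasome genes. The lists with such changes had median 2 h signals of 101, 91.4, 396, 75.2, 277 and 694, in the order given. Their median changes from 0 h to 2 h were -2.21, -0.79, -0.89, -1.42, -0.57 and -0.56. The lists without any had signals of 569, 8200, 828, 2830 and 1709 and changes of -0.33, 0.06, -0.04, 0.09 and 0.03. The part of signal and first loss in these counts was not tested. The number of plateaus was 221 and 78 without the 2 h arrays of experiments 1 and 2 and 167 without the 4 h array of experiment 2. It was 103 with a minimum mean of 200 and 201 with no minimum, 103 and 180 of them among the 342.

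The change over the second 2 h in high IL-3 shares no array with that in low IL-3, although the cultures and the 0 h arrays are the same. The calls in low IL-3, however, come from a fit to all arrays of the series. The high IL-3 arrays therefore enter their p-values and the filter on signal. A probe set that differed between the high IL-3 pairs was less likely to be called, so the shares below are not independent of the calls. Of the 2241 probe sets that fell in low IL-3, 2138 (95.4%) were lower at 4 h than at 2 h in high IL-3 in both experiments, against 42.7% of all tested probe sets, and their median change in high IL-3 was -0.54, beside -0.59 in low IL-3. Of the 254 that rose, 151 (59.4%) were higher in both high IL-3 pairs, against 26.3% of all, with medians of 0.20 in high and 0.53 in low IL-3, the latter from the arrays that picked them. Across the 11811 probe sets the changes in low and high IL-3 correlated with a Pearson r of 0.60 in experiment 1 and 0.63 in experiment 2, given as a description, since probe sets share arrays and signal range.

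A difference between the doses in this interval passed for 1 probe set (0.00847%), that of Osbpl2, an oxysterol-binding protein. In low IL-3 it gave 579.9 and 478 at 2 h and 414 and 332 at 4 h, and in high IL-3 378 and 305 at 2 h and 864 and 503 at 4 h. Thus both cultures went down in low IL-3 and up in high IL-3, and the difference was -1.41 ± 0.20 (adjusted p = 0.049). At an unadjusted p under 0.05 the test gave 360 probe sets lower and 323 higher in low IL-3. The Osbpl2 call was lost under 6 other settings with the block kept and without the 2 h array of experiment 2 or either 4 h array in low IL-3, or the 4 h array of experiment 1 in high IL-3.

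**Figure D5:**
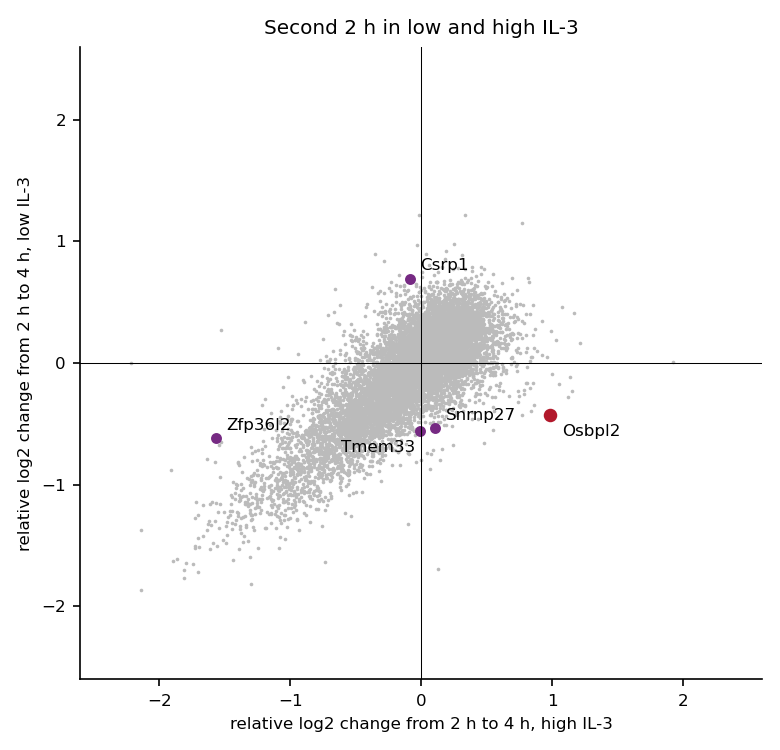
Each grey point is 1 of the 11811 tested probe sets, by its log2 change from 2 h to 4 h in high IL-3 (x axis) and in low IL-3 (y axis), each relative to the median of all tested probe sets. Osbpl2 (red), the single probe set whose difference passed, lies apart at -0.43 in low and 0.98 in high IL-3, and 4 further genes with small p-values are violet.

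The genes next in p did not pass. Tmem33, a membrane protein of the endoplasmic reticulum, gave in low IL-3 2079 and 2009.9 at 2 h and 1370.0 and 1281 at 4 h. Its values in high IL-3 were 1887 and 1854 at 2 h and 1888 and 1694 at 4 h, a difference of -0.55 ± 0.12 (adjusted p = 0.32). Snrnp27, of the spliceosome, fell in low IL-3 (1534 and 1196 at 2 h and 962 and 826 at 4 h) and in high IL-3 stood at 1473 and 1246 at 2 h and 1605 and 1235 at 4 h, a difference of -0.65 ± 0.13 (adjusted p = 0.32). In both, each 4 h array lay below each 2 h array in low IL-3, while the times overlapped in high IL-3, and the 3 other probe sets of Tmem33 did not pass from 2 h to 4 h in low IL-3. Zfp36l2 went the other way: in high IL-3 it gave 1588 and 783 at 2 h and 382 and 323 at 4 h, with its low IL-3 values given above, and the difference was 0.94 ± 0.25 (adjusted p = 0.75). The plot of the low and high IL-3 changes places Zfp36l2 and Csrp1 (0.78 ± 0.19, adjusted p = 0.66) above the bulk.

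Without the 2 h array of experiment 2 in high IL-3 the test of the difference called 13 probe sets lower and 133 higher in low IL-3, and without that of experiment 1 it called 9 and 4. A p that misses the threshold does not show that the doses acted alike in this interval.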

How the data were processed

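RNA of 10 samples from 2 divided cultures was measured on 1-colour arrays, 2 for each of 5 groups. The authors processed the scans in dChip, and the deposited values are its linear intensity for 22690 probe sets, 1 column per array. The sources used here do not give its version. All columns were matched to a sample. By the platform annotation 20393 probe sets have a single gene, 691 have several, 1555 have none and 51 are controls, with 20364 symbols updated through RefSeq GRCm38.p6.

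Values were taken as log2(intensity + 16) and tested with limma 3.58.1 in R 4.3.3 (eBayes with a trend on signal, all 10 arrays in 1 fit) for 11811 probe sets with a mean of at least 50, with Benjamini-Hochberg adjustment at 0.05. Experiment was a block, because the study's methods divide 1 culture per experiment and take ratios within it, and arrays of the same experiment deviated together (correlation 0.762 to 0.8875 over the pairs of groups). Groups came from the sample labels. The number of arrays limits the precision.

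Lists hold 1 probe set per gene, that of highest mean. Named genes, by the probe set of smallest p, were the 12 largest falls and rises that passed with the same sign in both experiments, the 8 largest slope changes of each pattern, the 6 smallest p in each direction of low minus high IL-3, up to 4 members of each of 40 lists in their main direction and up to 2 against it, the transcripts of the Northern blots, Hbegf and Gapdh. Not all of them are printed. Members and lists were chosen with earlier results of these data known. Alternatives changed the pseudocount, filter, scaling, block, variance trend and arrays used.

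Simulated data for 4 h minus 2 h had 11811 probe sets, 200 of them changed, in 5 runs. The test recovered 82.8% of falls and 86.0% of rises of 0.8 on the log2 scale. Of those of 0.4 it recovered 24.8% and 25.2%. Of its calls 8.83% were false, a larger share than the threshold aims at. The real arrays gave 2241 falls and 254 rises, and the adjusted cut-off depends on how many probe sets change. The simulated rates are therefore not read as the recovery or the false share of the calls above.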

Additional observations from a re-analysis of the deposited data

Results flagged for a closer look

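Osbpl2 was singled out because its change from 2 h to 4 h differed between the doses of IL-3 by the test of the difference itself. Low minus high IL-3 was -1.41 on the log2 scale (adjusted p = 0.049, limma), with both experiments down in low IL-3 and up in high IL-3. The call was lost under 11 other settings in all, the fit without the block and the omission of each of 4 single arrays among them. Groups of 2 arrays could not be examined for outlying samples.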

How the results depend on the processing

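Counts of falls, rises, delayed falls, plateaus and of probe sets lower in low than in high IL-3 were 2241, 254, 30, 342 and 1. Without the replicate block, that is without the pairing by experiment, they were 3, 0, 0, 0 and 0. With no filter on signal there were 98 rises, 9 delayed falls, 201 plateaus and 0 lower in low IL-3, and with a minimum mean of 200 there were 17 delayed falls and 103 plateaus. Scaling to the 75th percentile gave 1854 rises and 0 lower in low IL-3, quantile normalization 1332 rises, 210 plateaus and 0, Gapdh scaling 2 lower in low IL-3, and a common median (chosen after seeing the data) 2045 rises, 48 delayed falls and 0. A pseudocount of 64 gave 0 lower in low IL-3, a fit with no variance trend 4 delayed falls and 0, and a fit to the arrays of the comparison alone 403 rises. Leaving out 1 array at a time gave 961 to 2395 falls, 24 to 377 rises, 2 to 42 delayed falls, 78 to 375 plateaus, 0 to 13 lower and 0 to 133 higher in low IL-3. The change of Actg1, -0.16 before the median was subtracted, turned to 0.0043 with a common median. The cause of these shifts was not tested. The median half-life was 3.74 h with the 75th percentile and 3.13 h with Gapdh, beside 3.0 h. Leaving out a whole experiment leaves no residual degrees of freedom and was not run.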

Other observations

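Of 97 chromatin regulators 15 fell in the second 2 h, beside 22.4% of all genes. Ezh2, the H3K27 methyltransferase of Polycomb, gave 1219.6 and 854 at 2 h and 731 and 559 at 4 h in experiments 1 and 2, a relative log2 change of -0.60 ± 0.11 (adjusted p = 0.00033). Kmt2e gave 298 and 119 at 2 h and 107 and 60.8 at 4 h and changed by -1.02 ± 0.17 (adjusted p = 0.00024). For both genes each 4 h value lay below each 2 h value. Smarca4, an ATPase of the SWI/SNF complex, was at 271 and 574 at 2 h and 389 and 567 at 4 h, a change of 0.30 (95% interval -0.01 to 0.60, adjusted p = 0.26).

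Among tRNA synthetases and their partners, Aimp2, a scaffold of the multi-synthetase complex, gave 919 and 727 at 2 h and 430.3 and 413 at 4 h and changed by -0.87 ± 0.12 (adjusted p = 8.1e-05). Rars and Iars, the arginyl and isoleucyl enzymes, changed by -0.59 and -0.54, while Kars, the lysyl enzyme, gave 1305 and 1731 at 2 h and 1818 and 1915 at 4 h, a change of 0.37 (95% interval 0.11 to 0.62, adjusted p = 0.082). Of the interferon response genes, the GTPase Ifi47 gave 596 and 500.2 at 2 h and 299 and 352 at 4 h and changed by -0.66 ± 0.14 (adjusted p = 0.0013), and Oas1a, an antiviral oligoadenylate synthetase, gave 218 and 75.3 at 2 h and 303 and 146 at 4 h and changed by 0.70 ± 0.21 (adjusted p = 0.044). In glycolysis, Hk2, hexokinase 2, gave 426 and 281 at 2 h and 189.5 and 149 at 4 h and changed by -0.92 ± 0.15 (adjusted p = 0.0002).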
